A study of Mus musculus with 2 samples.

Results

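The Wnt pathway genes described here are the ligands, receptors, secreted inhibitors and core signalling components that the array named by a fixed list of symbols. The list took every non-control probe for a Wnt, Fzd, Sfrp or Dkk gene with a number after the family name, and those for Lrp5, Lrp6, Axin1, Axin2, Lef1, Tcf7, Ctnnb1, Lgr4, Rnf43 and Znrf3. It gave 47 genes of the 30198 named on the array, measured by 68 probes. The symbols alone, not a measured value, decide which probes belong, though the list was drawn up with earlier results of these arrays known. Wnt proteins are secreted lipid-modified ligands that bind frizzled receptors together with the co-receptors Lrp5 and Lrp6, and the signal keeps beta-catenin from being destroyed, so that it can act with Tcf and Lef proteins on target genes. Sfrp proteins bind Wnt ligands outside the cell, and Dkk1 and its relatives block the co-receptors. In the kidney the ligands Wnt9b, Wnt7b and Wnt11 are known from the ureteric bud, the embryonic source of the collecting duct, and Wnt4 from forming nephrons and the medullary stroma.

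The RNA came from collecting duct cells of adult mice, captured on magnetic beads through DBA, a plant lectin with affinity for that epithelium. One group is labelled wild type (WT), and its label names no transgene. The other, the conditional knockout (CKO), is labelled Gata2flox/-::Pax8-rtTA::Tet-Cre: it had 1 floxed and 1 null allele of Gata2, a transcription factor gene, and Cre that doxycycline switches on wherever the Pax8 promoter drives rtTA, which includes renal tubule segments other than the collecting duct. Cells outside the tubules therefore had 1 Gata2 allele fewer in the CKO mice as well. Mice of both groups were aged 8 weeks and of mixed sex, and had received doxycycline over the last 4 weeks, starting when they were 4 weeks old. The design names 3 mice per genotype, and each genotype was represented by 1 single-colour array, made from 50 ng of RNA. Whether the RNA of the 3 mice was pooled is not stated outright.

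With 1 array per genotype there is no replicate check, no test was possible and no p-value is given. Each difference is log2 of CKO over WT, with the processed signal of each array first set to that array's 75th percentile, which was 314 in WT and 250.03 in CKO. A signal on the CKO array therefore has to be read against that lower percentile. The error given as ± is the scanner software's error of the spots, combined over both arrays, and covers the measurement on these arrays only, not the spread between mice. Each array had 43379 non-control spots, of which 64.1% in WT and 62.3% in CKO were well above background by the scanner software's flag, and 0 were saturated. The arrays shared 1 slide and 1 scan. Both probes of Gata2 itself gave a lower value in CKO. The first had a signal of 3943 in WT and 2424 in CKO (−0.37 ± 0.20), and the second 3432 and 2194 (−0.32 ± 0.20). No label says which exon was floxed, so it is not known whether either probe lies in the deleted part.

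Of the 47 Wnt pathway genes, 35 were well above background on at least 1 array by at least 1 probe, and these are called measured. That is 74.5% of them, against 62.8% of all named genes (18972 of 30198). On both arrays, 30 were well above background. The other 5, Wnt16, Sfrp4, Sfrp5, Dkk1 and Dkk2, were so on the WT array only, and 0 on the CKO array only. Over all 18972 measured genes 893 (4.71%) passed in WT alone and 395 (2.08%) in CKO alone. A gene that passed in WT alone could only come out as lower, or as no different, so the direction of these 5 was fixed by the filter. The 12 genes well above background on neither array were the ligands Wnt2, Wnt3, Wnt3a, Wnt7a, Wnt8a, Wnt8b and Wnt10b, the receptors Fzd9 and Fzd10, the inhibitor Dkk4, and Lef1 and Tcf7, both DNA-binding partners of beta-catenin. Their 16 probes had signals of 2.47 to 10.8 in WT and of 2.31 to 12.1 in CKO. For comparison, the dimmest spot that passed the flag had a signal of 12.0 in WT and 11.6 in CKO, and negative control spots had medians of 2.67 and 2.53. Some brighter CKO probes failed the flag, such as that of Ascl2, a gene outside the list, at 16.0. Bounds given below against the dimmest passing signal are therefore nominal and not guaranteed folds. No level can be given for these 12 genes.

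The measured genes did not move together. On the CKO array 19 of the 35 were higher and 16 lower, with a median difference of 0.01, against 57.1% higher, 42.0% lower and a median of 0.04 over all 18972 measured genes. Among the 30 on both arrays 19 were higher and 11 lower, and the median was 0.08, against 0.05 over all such genes. Past 2-fold, 0 of the 35 were higher, against 282 of all measured genes (1.49%). In the other direction 4 were past 2-fold, Wnt16, Dkk3, Fzd1 and Sfrp2, against 538 of all measured genes (2.84%). The filter fixed the direction of Wnt16. With probes well above background on both arrays only, 3 of 30 members were past 2-fold lower, against 429 of 17688 genes. With normexp, another background correction, Fzd1 alone of the 4 remained past 2-fold. It was run with an offset of 50 added to every signal, which by itself draws the differences of dim genes toward 0. A smaller difference of a dim gene with normexp therefore cannot show what the background correction alone does. A finer count, chosen after the values were seen, took differences over 2 times the spot error among genes well above background on both arrays. It held 7 higher genes (Axin2, Wnt1, Wnt11, Lrp5, Wnt7b, Wnt4 and Znrf3), where 1629 of all such genes (9.21%) passed in that direction, and 6 lower genes (Dkk3, Fzd1, Sfrp2, Wnt5a, Wnt5b and Fzd2), where 1319 (7.46%) passed.

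The scale of the whole array bears on every direction given here. When the arrays were set instead to 8 spike-in control transcripts, RNAs added in known amounts, the median of all genes moved from 0.04 to −0.50, and 4 of the 35 Wnt pathway genes were higher and 31 lower. The genes that were still higher with that scaling were Axin2 (0.25), Wnt1 (0.16), Wnt11 (0.12) and Lrp5 (0.10), each by less than its spot error. From higher to lower turned 15 genes, among them Wnt7b, Wnt4 and Znrf3. The higher genes of the finer count thus did not pass 2 times the spot error with that scaling. Differences are therefore best read relative to the median of all genes. On that footing the Wnt ligands had a median of 0.17 with the 75th percentile and 0.17 with the spike-ins and the frizzled receptors −0.14 and −0.14. Both scalings shift all genes of an array by 1 amount, so this match follows from the arithmetic and is no further support.

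**Figure D1:**
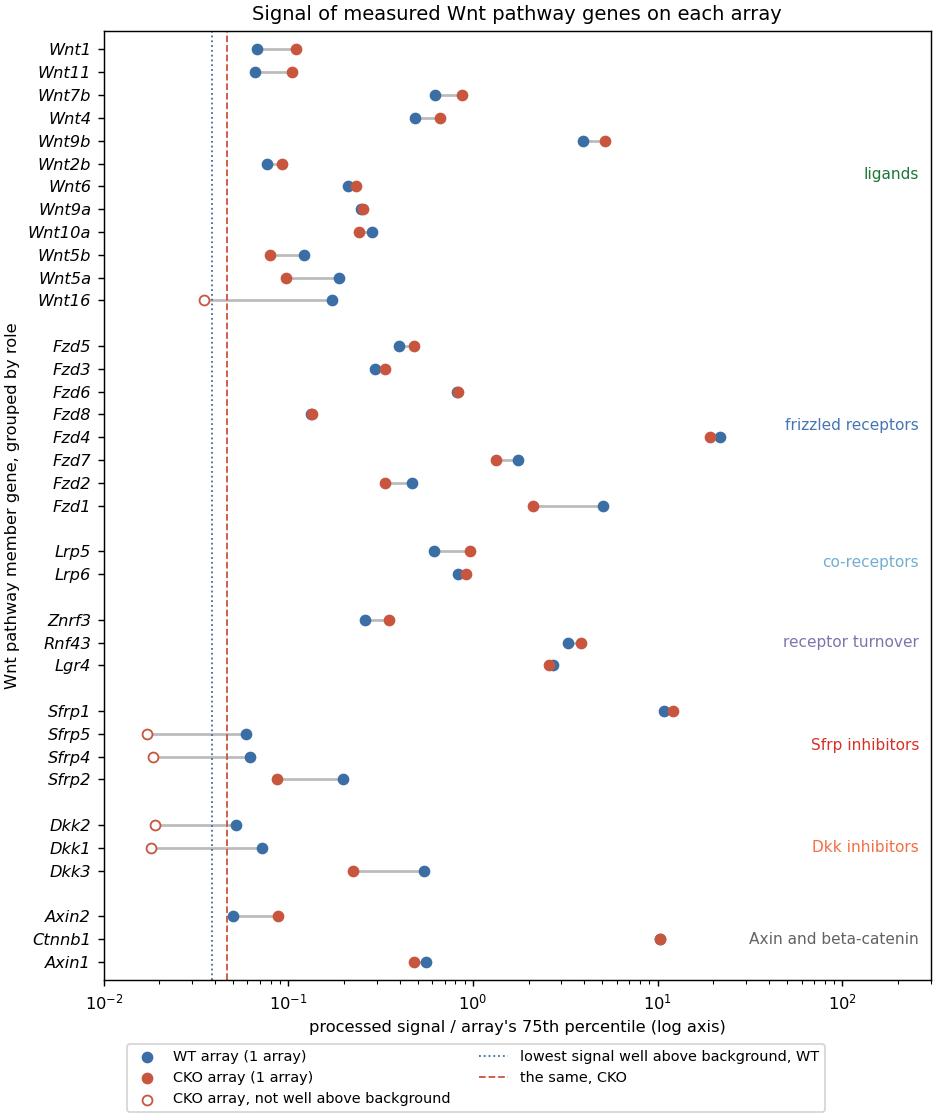
Processed signal of each of the 35 measured Wnt pathway genes divided by the 75th percentile of its array (log axis), with 1 array per genotype: blue points are the WT array, red points the CKO array, and open red points are signals not well above background on the CKO array. The vertical lines mark the lowest signal well above background on each array, and the open points of Wnt16, Sfrp5, Sfrp4, Dkk2 and Dkk1 lie left of the CKO line. Levels of different genes are not comparable, since each probe has its own response.

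The probes behind the 4 genes at least 2-fold lower and behind Axin2, the pathway target with the highest difference among the members, are shown because each value below rests on these single stretches of transcript. Each probe has 60 bases, of which the first 30 are printed, 5′ to 3′, with no part in capitals. The files place the Fzd1 probe at chr5:4754003-4754062 on the minus strand of mm9, and the Dkk3 probe at chr7:119260828-119260887 on the minus strand. The Sfrp2 probe is at chr3:83577864-83577923, the Wnt16 probe at chr6:22241089-22241148 and the Axin2 probe at chr11:108811980-108812039, all on the plus strand. The exon or untranslated region that a probe covers was not looked up, since no annotation of mm9 was used.
Fzd1: caaatgccgatacatacataggacctaaat
Dkk3: gaatgaaatttgcaaagtcgcttagcaaca
Sfrp2: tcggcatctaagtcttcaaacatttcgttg
Wnt16: agtacggcatgtggttcagcagaaagtttc
Axin2: ttctactttagactgtaaattatgcattat

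Of the 19 Wnt ligand genes on the array 12 were measured, and 8 of them were higher and 4 lower on the CKO array, with a median of 0.22; with cyclic loess, another normalization, the split was 7 and 5, and with spike-in scaling 2 and 10. Without Wnt16, whose value is a bound, 8 of 11 were higher and 3 lower, with a median of 0.28. Wnt9b, the ligand of the ureteric bud that induces nephron formation, had a signal of 1240.4 in WT and 1288 in CKO, a difference of 0.38 ± 0.20. Wnt7b, which the embryonic collecting duct needs to form the medulla, gave 196 and 218 (0.49 ± 0.21). Wnt4, which acts in the conversion of mesenchyme to epithelium, gave 153 and 166 (0.44 ± 0.21). In these 3 ligands the CKO signal was the higher one even before the arrays were scaled to their percentiles, but with spike-in scaling each was slightly lower (−0.16 for Wnt9b, −0.06 for Wnt7b and −0.10 for Wnt4).

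Wnt1 and Wnt11, both close to the lowest measurable signal, had the highest differences among the ligands. Wnt1, best known as a ligand of the developing midbrain, had a signal of 21.2 in WT and 27.5 in CKO (0.71 ± 0.30). Its probe was printed 10 times on each array. The WT spots ran from 13.8 to 28.9 with a median of 21.4, and the 8 CKO spots left after 2 with outlier flags were removed ran from 23.8 to 32.6 with a median of 27.6. Once scaled, the spots left on the arrays did not overlap: the WT spots lay between −4.51 and −3.44 on the log2 scale (−3.89 ± 0.32, SD over 10 spots) and the CKO spots between −3.39 and −2.94 (−3.19 ± 0.17, SD over 8 spots). The separation rests on the removal of the 2 flagged CKO spots, which had signals of 16.8 and 19.5 and lay at −3.89 and −3.68, inside the WT range. Spots of 1 array come from 1 labelled RNA and are no replicates of a genotype. With the flagged spots kept the difference was 0.59, with normexp 0.34, and with spike-in scaling 0.16. Wnt11, made at the tips of the ureteric bud, gave 20.8 and 26.2 (0.66 ± 0.33), and 0.37 with normexp.

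**Figure D2:**
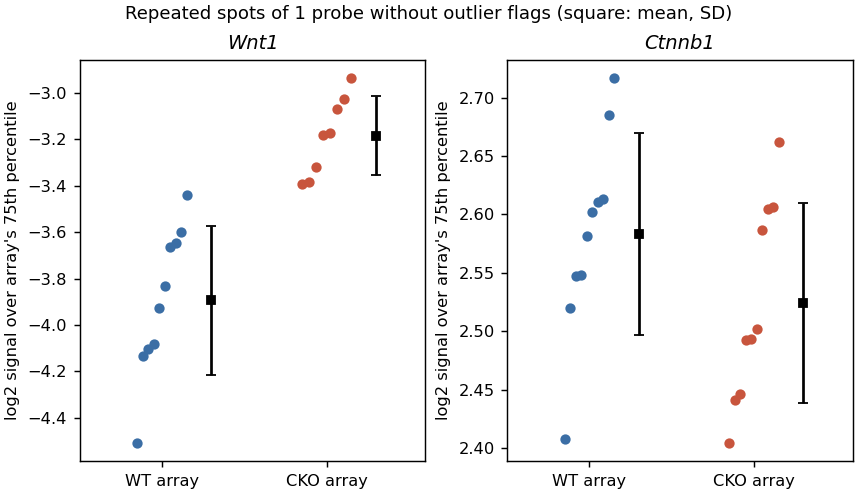
Log2 signal over the array's 75th percentile of the repeated spots without outlier flags of the Wnt1 probe (left; 10 in WT, 8 in CKO) and of the repeated Ctnnb1 probe (right) on the WT array (blue) and the CKO array (red), with the mean and SD over spots as a black square and bar; the vertical scales of the panels differ. The WT and CKO spots of Wnt1 shown do not overlap, but the 2 flagged CKO spots left out lay at −3.89 and −3.68, within the WT range, while those of Ctnnb1, with means of 2.58 and 2.52, do.

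Wnt5a and Wnt5b, ligands that act mainly outside the beta-catenin branch, were both lower on the CKO array. Wnt5a had a signal of 58.9 in WT and 24.1 in CKO (−0.96 ± 0.26), and a further probe of it was well above background on neither array. Wnt5b gave 38.3 and 19.7 (−0.63 ± 0.29). With normexp, which added an offset of 50 to every signal, these differences came to −0.25 and −0.06. That offset alone shrinks the differences of signals this dim.

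Wnt16 had the lowest difference of the 35 genes. Its signal was 54.1 in WT and 8.73 in CKO, where it was not well above background. Against the lowest signal well above background on the CKO array it was 3.72-fold lower (−1.90). This is a nominal bound, since some brighter probes failed the flag, and it came to −0.39 with normexp. The remaining ligands differed by little more than the spot error or by less. Wnt2b gave 24.0 and 23.2 (0.28 ± 0.30), and Wnt6 65.8 and 57.9 (0.15 ± 0.22). Wnt9a gave 78.0 and 63.5 (0.03 ± 0.22), and Wnt10a 89.3 and 60.4 (−0.23 ± 0.22).

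Of the 10 frizzled receptors 8 were measured, all of them on both arrays, and 4 were higher and 4 lower, with a median of −0.09; with spike-in scaling 0 were higher and 8 lower. Relative to the median of all genes 2 lay above and 6 below with either scaling, which follows because both scalings shift all genes alike. Fzd1 stood apart from the other receptors in the size of its difference. It had a signal of 1587 in WT and 526 in CKO (−1.26 ± 0.20), so that the CKO level was 41.6% of the WT level once scaled. Its signal was far above background on both arrays, and with normexp the difference was −1.22. Over all alternatives it ran from −1.81 to −1.22.

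Fzd2 and Fzd7, of the same subfamily as Fzd1, were lower by smaller amounts. Fzd2 gave 146.5 and 83.3 (−0.49 ± 0.21), and −0.26 with normexp. A dimmer probe of Fzd2 passed the flag in WT alone, with 18.8 there and 6.97 in CKO. Fzd7 gave 553 and 332 (−0.41 ± 0.20) by its brighter probe, and 27.4 and 25.5 (0.23 ± 0.28) by its dimmer one, so the direction of Fzd7 was not settled and the mean of both was −0.09. Fzd4, a receptor that also binds norrin, had a signal of 6826 and 4767 (−0.19 ± 0.20). Fzd6, best known from planar cell polarity in the skin, gave 257 and 206 (0.01 ± 0.21).

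Fzd5 gave 124 and 119 (0.27 ± 0.21), and a dimmer probe 0.46 ± 0.32. Fzd3, a polarity receptor of growing axons, gave 93.0 and 83.2 (0.17 ± 0.21) by its brightest probe, while its other 2 probes gave 0.13 and −0.33. Fzd8 gave 41.9 and 33.4 (0.01 ± 0.25), and −0.40 ± 0.26 by its other probe. Except for Fzd1 and Fzd2, no receptor difference passed 2 times the spot error by its brightest probe.

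Both co-receptors were higher on the CKO array, Lrp6 by less than its spot error and not with spike-in scaling. Lrp5 had a signal of 193 in WT and 239.5 in CKO (0.64 ± 0.21), and it stayed higher with normexp (0.48) and with spike-in scaling (0.10). Lrp6 gave 261 and 228 (0.13 ± 0.20) by its brighter probe, which turned to −0.41 with spike-in scaling. Its other probe gave 120 and 156 (0.71 ± 0.21), so the probes of Lrp6 had the same sign and differed in size.

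Of the genes that set how much frizzled protein stays on the cell surface, the membrane ubiquitin ligases Rnf43 and Znrf3 were higher on the CKO array, though not with spike-in scaling (−0.31 and −0.11). Znrf3 gave 81.2 and 87.4 (0.44 ± 0.21), and Rnf43 gave 1029 and 964 (0.24 ± 0.20). Lgr4, the R-spondin receptor that draws these ligases off, gave 846 and 641 (−0.07 ± 0.20) by its brightest probe. Its other measured probes gave 0.26 ± 0.20 and 0.47 ± 0.21, so no direction can be given for Lgr4.

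**Figure D3:**
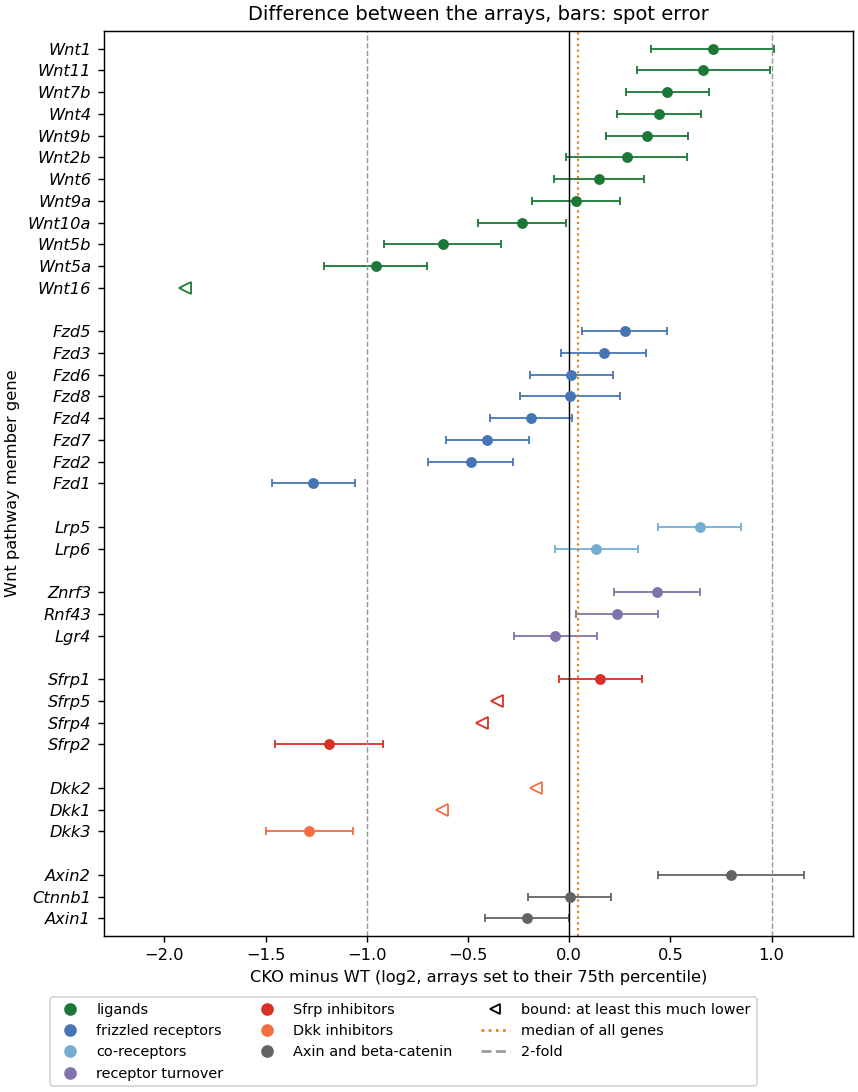
CKO minus WT difference of each measured Wnt pathway gene (log2, each array set to its 75th percentile), grouped and coloured by role; bars are the scanner software's spot error, open triangles are bounds for genes that passed the background flag in WT alone, and dashed lines mark 2-fold. Wnt16, Fzd1, Sfrp2 and Dkk3 lie left of the lower 2-fold line and no gene lies right of the upper one; with spike-in scaling all points shift left with the median of all genes, from 0.04 to −0.50.

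Of 8 secreted inhibitors on the array 3 were well above background on both arrays, Sfrp1, Sfrp2 and Dkk3. Of these Sfrp1 was higher on the CKO array, though not with spike-in scaling, and Sfrp2 and Dkk3 were lower. The values of Sfrp4, Sfrp5, Dkk1 and Dkk2, which passed the flag in WT alone, are bounds whose direction the filter fixed, so no median over the group is given. In a bulk sample a smaller number of cells that make a transcript cannot be told apart from less of it per cell.

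Among the Dkk genes, Dkk3, a divergent member of the family that is made by stromal and vascular smooth muscle cells among others, had a signal of 171 in WT and 55.8 in CKO (−1.28 ± 0.22). The CKO level was 41.0% of the WT level, and with normexp the difference was −0.77. Dkk1, the classical blocker of Lrp5 and Lrp6, gave 22.5 in WT and 4.51, not well above background, in CKO, 1.55-fold lower by its nominal bound. Its second probe gave 19.3 and 2.50, with the same status on each array. Dkk2 gave 16.3 and 4.73, 1.12-fold lower by its nominal bound. With normexp the bound of Dkk1 came to −0.13 and that of Dkk2 to −0.01.

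Among the Sfrp genes, Sfrp2, typical of stromal cells, had a signal of 62.1 in WT and 21.7 in CKO (−1.19 ± 0.27), or 43.9% of the WT level. With normexp it was −0.28. Sfrp4 gave 19.6 and 4.65, and Sfrp5 gave 18.6 and 4.28, lower by nominal bounds of 1.35-fold and 1.28-fold. Both were not well above background on the CKO array, and with normexp both came to −0.02. Sfrp1 was measured well above background on both arrays. It gave 3401 and 3010.2 (0.15 ± 0.20) by its brighter probe and 106 and 78.3 (−0.10 ± 0.21) by its dimmer one.

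Of the genes for beta-catenin and its destruction complex, Ctnnb1 had the same scaled level on both arrays. Its brighter probe gave 3221 and 2565 (0.00 ± 0.20), and its other probe, printed 10 times, ran from 1668 to 2066 in WT and from 1324 to 1582 in CKO. The scaled spots of that probe overlapped, with means of 2.58 ± 0.09 and 2.52 ± 0.09 (SD over 10 spots on each array). Axin1, the scaffold of the complex, gave 175 and 120 (−0.21 ± 0.21). Axin2, a scaffold that is also a widely used readout of beta-catenin signalling, had the highest difference of all 35 genes, 15.8 in WT and 21.8 in CKO (0.80 ± 0.36). Each signal was near the lowest measurable one, and the difference was 0.39 with normexp and 0.25 with spike-in scaling.

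Probes of 1 gene did not always give 1 direction. Of the 35 genes 11 had at least 2 measured probes, and in 5 of them, Dkk1, Fzd2, Fzd5, Lrp6 and Wnt6, all measured probes had the same sign. In Dkk1, Fzd2 and Wnt6 at least 1 of these probes passed the flag on 1 array only. The filter fixed the direction of such a probe, and its value is a bound. Only in Fzd5 and Lrp6 did the same sign come from probes that passed on both arrays. With bounds taken at their value, the gap between the highest and the lowest probe of a gene had a median of 0.41. It was over 0.5 in 3 genes, the widest being 0.63 in Fzd7. This spread is wider than the spot error of a bright gene. The differences of Fzd1, Dkk3, Sfrp2, Wnt16, Wnt7b, Wnt9b, Wnt4, Axin2 and Lrp5 each rest on 1 probe.

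**Figure D4:**
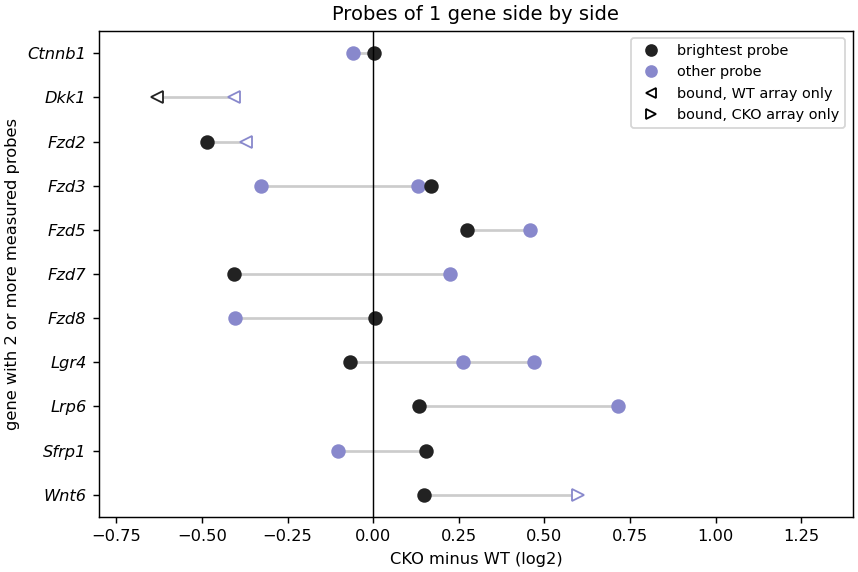
CKO minus WT difference (log2) of every measured probe of the 11 Wnt pathway genes with at least 2 such probes; dark points are the brightest probe, light points the others, and open triangles are bounds for probes well above background on 1 array only, pointing left for the WT array and right for the CKO array. In Fzd7, Fzd3, Lgr4, Sfrp1, Fzd8 and Ctnnb1 the probes lie on both sides of 0.

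Among the 15 brighter of the 30 genes measured on both arrays, 10 were higher and 5 lower with a median of 0.13, and among the 15 dimmer ones 9 were higher and 6 lower with a median of 0.03. Together with the 5 genes that passed the flag in WT alone, which the filter fixed as lower, the dimmer ones were 9 higher and 11 lower.

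Other genes of the pathway, from a list of 56 that are not members, of which 55 were on the array and 41 measured, had a median of 0.04, the same as all genes. Of these 24 were higher and 17 lower, against 57.1% higher and 42.0% lower of all measured genes. Among the 38 well above background on both arrays 23 were higher and 15 lower. Past 2-fold there were 0 higher and 2 lower, against 1.49% and 2.84% of all measured genes. Apcdd1, a membrane inhibitor that binds Wnt and Lrp5, was 81.3 in WT and 21.6 in CKO (−1.58 ± 0.26). Vangl2, a core planar cell polarity protein, was 250.3 and 93.8 (−1.09 ± 0.21). Kremen2, a co-receptor of Dkk proteins, passed the flag in CKO alone, with 8.25 and 18.2, 1.90-fold higher. That value is a nominal bound whose direction the filter fixed. Apc2, a relative of the scaffold Apc, was 126 and 141 (0.49 ± 0.21).

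By position in the pathway, 11 of the 13 measured cytoplasmic genes (such as dishevelled, Apc and Gsk3 genes) were higher, with a median of 0.14. Of the 9 measured nuclear partners 7 were lower, with a median of −0.07. Over all measured genes 57.1% were higher and 42.0% lower. Only 1 of these cytoplasmic genes and 0 of the nuclear partners differed by over 2 times the spot error. Of the 9 planar polarity genes 7 were well above background on both arrays, of which 4 were higher and 3 lower with a median of 0.16, and 2, Celsr3 and Prickle2, passed the flag in WT alone. The receptors Ptk7, Ror2 and Ryk were all higher, with a median of 0.35. Over the extracellular genes on both arrays, 3 were higher and 1 lower, with a median of 0.13. Wls and Porcn, which ready Wnt proteins for secretion, were both lower, with a median of −0.14. Except for that of the receptors, these medians lie within the spot error of a single bright gene, 0.20, and spike-in scaling lowers each of them along with the median of all genes. All 4 R-spondin genes, Rspo1 to Rspo4, and the stem cell receptor Lgr5 were well above background on neither array, as were the inhibitors Wif1, Frzb and Notum.

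Genes widely used as readouts of Wnt signalling went both ways. Of 17 listed, which include 5 members, 12 were measured, 10 of them on both arrays, where 4 were higher and 6 lower with a median of −0.35; Sp5 and Ascl2 passed the flag in WT alone. The higher ones were Axin2, Znrf3 and Rnf43, given above, and Tnfrsf19 (112 and 120, 0.44 ± 0.21). At least 2-fold higher were 0 (1.49% of all measured genes) and at least 2-fold lower 3 (2.84%): Mmp7, a metalloproteinase of injured tubules (69.2 and 16.1, −1.77 ± 0.33), Apcdd1, and Cd44, an adhesion receptor found on leukocytes and injured epithelium (153 and 53.2, −1.20 ± 0.22). Myc (326 and 129.8, −0.996 ± 0.21) and the cyclin gene Ccnd1 (2520.01 and 1392, −0.53 ± 0.20) were lower too. Sp5, a transcription factor gene, was 1.68-fold lower by its nominal bound. The list was drawn up from general knowledge, and its genes respond to other signals as well.

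Markers of other cells that the preparation held also differed between the arrays. All 9 macrophage markers were lower, with a median of −0.80, and their summed level in units of the array's 75th percentile was 98.4 in WT and 48.01 in CKO. The brightest were Lyz2 (18525 and 6177, −1.25) and C1qb (2805 and 1316, −0.76), and Itgam had the steepest difference (−1.47). Of 10 markers of fibroblasts, pericytes and smooth muscle 9 were measured and 7 were lower, with a median of −0.59. Their summed levels were 24.3 and 21.2, and most of each sum came from Acta2 (4957 and 4070, 0.05). The steepest were Vim (−1.53) and Pdgfrb (−1.47), Dcn (−0.54) was the next brightest, and Pdgfra was well above background on neither array. In every marker list the summed level follows its brightest genes most. All 5 podocyte markers were lower (median −1.21, summed levels 1.999 and 1.08), among them Wt1 (−1.70), Nphs1 (−1.23) and Synpo (−0.03). Of 7 endothelial markers 4 were well above background on both arrays and all of these were lower (median −0.33), among them Vwf (−1.77) and Emcn (−0.35). Cdh5 (a bound of −0.76) and Pecam1 passed in WT alone, and Tie1 on neither array. The summed levels, 0.757 and 0.465, cover the 6 measured markers and so include Cdh5 and Pecam1, which the filter let in through WT.

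Of the collecting duct's own cells, all 6 intercalated cell markers were higher, with a median of 0.85 and summed levels of 109.7 and 198, among them Atp6v1b1 (1.94), Slc4a1 (0.91) and Slc26a4 (0.79). Of 8 principal cell markers 6 were lower, with a median of −0.34 and summed levels of 1021 and 895. Among the lower ones were Fxyd4 at −0.09, Aqp3 at −0.43, Hsd11b2 at −0.61 and Avpr2 at −0.57. The 2 higher ones were Gata3 at 0.30 and Tfcp2l1 at 0.26. Every marker of that list was well above background on both arrays. Segments outside the collecting duct were present too. In the proximal tubule list 2 of 6 markers were higher, by up to 0.72. The 4 lower ones included Lrp2 (−1.58), Cubn (−0.89) and Slc34a1 (−0.18). That list had a median of −0.21 with summed levels of 7.62 and 6.14. The thick ascending limb list had 0.39 with 44.6 and 52.2 (Umod 0.39, Slc12a1 −0.09, Cldn16 0.98), and the distal convoluted tubule list −0.78 with 67.5 and 54.2 (Calb1 −0.29, Slc12a3 −0.78, Pvalb −1.40). Of the 4 urothelial markers Upk1b and Upk3a were well above background on neither array, while Krt5 differed by −0.67 and Upk1a by 0.76, a median of 0.05. With spike-in scaling all these medians shift down by the same amount as that of all genes. The part of these cells in the values of Dkk3, Sfrp2, Wnt5a, Wnt16, Fzd1 and the other Wnt pathway genes was not tested.

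**Figure D5:**
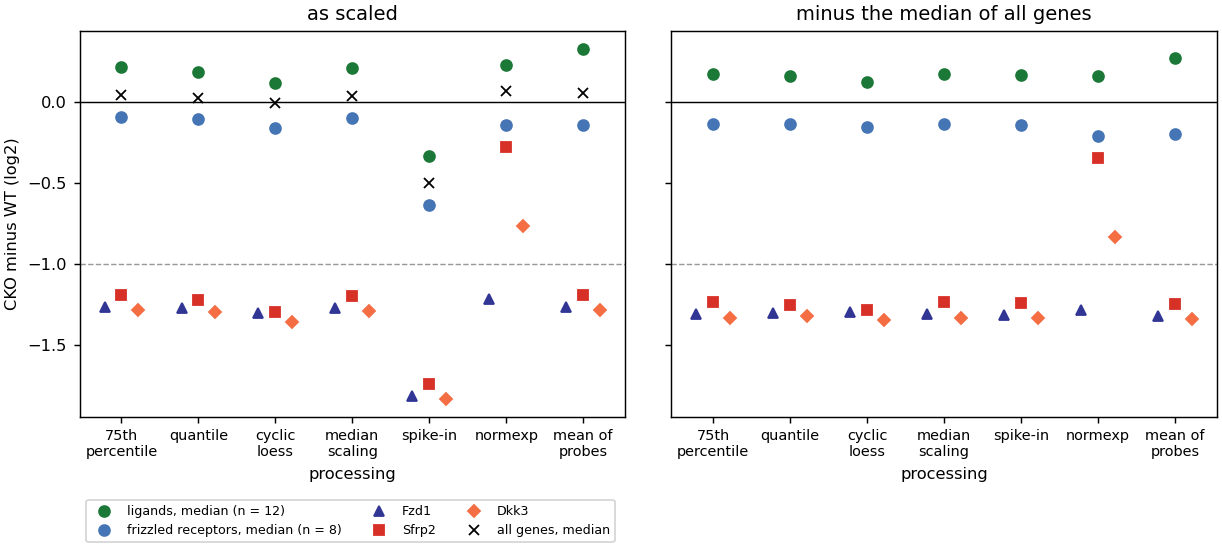
CKO minus WT difference (log2) under 7 ways of processing the same arrays, as scaled (left, with the median of all genes as crosses) and relative to the median of all genes (right): medians of the Wnt ligands and frizzled receptors, and the values of Fzd1, Sfrp2 and Dkk3, the genes at least 2-fold lower that were well above background on both arrays; the dashed line marks 2-fold lower. Spike-in scaling moves every point down on the left together with all genes, and normexp brings Sfrp2 (−0.28) and Dkk3 (−0.77) inside 2-fold but not Fzd1 (−1.22).

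The proximal promoters of the genes at least 2-fold lower were read because GATA proteins bind DNA at a short recognisable site. RefSeq sequences of GRCm38.p6 held 40 promoters of 31 of the 47 genes, each the 250 bases before a transcription start; of the 4 genes at least 2-fold lower, Fzd1, Sfrp2 and Wnt16 had an entry. The letters searched on both strands were AGATAA, its variant with another last letter, AGATAG, and the same strings starting with another letter, TGATAA in the first case and TGATAG in the second. They were in 7 of the 40 promoters (17.5%), against 26.5% of all 32851 promoters of the same length. The genes with a match were Fzd1, Rnf43, Sfrp5, Wnt11, Lef1, Wnt2 and Wnt8b, of which Wnt11 and, except with spike-in scaling, Rnf43 were higher on the CKO array. Letters of the Tcf and Lef site, CTTTGAA and CTTTGAT, were in 3 promoters (7.50%), of Dkk1, Wnt11 and Wnt5b, against 7.48% of all. The promoter of Fzd1 (chr5:4758217-4758466, minus strand) held 2 matches to the GATA letters, in capitals. Those of Sfrp2 (chr3:83766071-83766320, plus strand) and Wnt16 (chr6:22287977-22288226, plus strand) held 0. A match of letters is no evidence of binding, and binding was not measured here.
Fzd1 promoter: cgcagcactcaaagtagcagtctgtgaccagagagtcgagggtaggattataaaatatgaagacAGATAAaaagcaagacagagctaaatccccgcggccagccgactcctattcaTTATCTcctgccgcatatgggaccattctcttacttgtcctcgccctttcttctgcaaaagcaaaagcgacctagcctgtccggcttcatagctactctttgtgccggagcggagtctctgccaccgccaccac
Sfrp2 promoter: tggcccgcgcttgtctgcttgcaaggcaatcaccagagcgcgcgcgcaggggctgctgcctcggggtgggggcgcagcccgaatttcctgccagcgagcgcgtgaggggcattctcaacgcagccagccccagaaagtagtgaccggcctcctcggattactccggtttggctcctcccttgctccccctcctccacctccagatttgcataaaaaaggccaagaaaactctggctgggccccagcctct
Wnt16 promoter: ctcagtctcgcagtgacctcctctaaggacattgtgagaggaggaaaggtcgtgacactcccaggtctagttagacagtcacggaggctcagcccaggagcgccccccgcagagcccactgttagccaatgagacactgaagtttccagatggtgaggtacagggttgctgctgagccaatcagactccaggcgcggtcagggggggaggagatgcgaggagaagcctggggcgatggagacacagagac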

How the data were processed

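The deposited files hold spot intensity on a linear scale, 1 file per array, and other columns with scanner flags. Per the file headers, the authors read the intensities with Agilent Feature Extraction 10.7.3.1, and probe positions are on mm9. How the authors normalized between arrays: not given in the sources used here. From these files, log2 of the processed signal minus its array's 75th percentile was computed after removing 66 (WT) and 73 (CKO) spots with outlier flags, and spots of a probe were averaged. A gene took its brightest probe among those that passed the scanner's background flag somewhere. If that probe passed on 1 array, its difference is a bound, computed against the dimmest passing signal of the other array or the probe's own, if higher. Such a bound is nominal, since some probes brighter than the dimmest passing signal failed the flag. Of 68 member probes 61 matched RefSeq by accession and 0 gave another symbol. Members, lists and tests were chosen with earlier results of these data known. Every member was named, with Gata2, the members of the other pathway list at least 2-fold apart and its 4 largest differences, and of each marker list the 2 brightest genes and the 2 with the largest difference. Other pathway genes, Wnt readouts and markers named beyond that rule were chosen after their values were seen. Genes were counted at 2-fold, or at 2 times the spot error. Alternatives were cyclic loess, quantile normalization, normexp (offset 50), scaling on the median or on spike-ins, other filters on dim probes, the mean of probes and keeping flagged spots. The count of genes past 2-fold was checked on data simulated from the WT array. That simulation changed bright genes only and kept the background flags of WT, so it did not cover dim genes or bounds. Tools were R 4.3.3, limma 3.58.1, Python 3.11.15, numpy 2.4.6, pandas 2.3.3 and matplotlib 3.10.9.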

Additional observations from a re-analysis of the deposited data

How the results depend on the processing

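With 1 array per genotype no array could be left out, and slide and scan as a block were not run because both arrays shared 1 slide and 1 scan. No paired analysis was possible because each genotype has 1 array. The 4 Wnt pathway genes at least 2-fold lower became 1 with normexp (Fzd1), 8 with spike-in scaling (adding Dkk1, Fzd2, Wnt5a and Wnt5b) and 9 with no filter on dim probes (adding Dkk1, Dkk2, Sfrp4, Sfrp5 and Lef1). The 0 at least 2-fold higher became 2 with no filter (Fzd10 and Tcf7, neither well above background). Counts under the other alternatives were 3 to 5, and each included Dkk3, Fzd1 and Sfrp2. The median of the members moved to −0.54 with spike-in scaling, with that of all genes at −0.50. Over all genes, 282 higher and 538 lower at 2-fold became 65 and 204 with normexp, 206 and 642 with cyclic loess, 58 and 1642 with spike-in scaling, and 1215 and 1241 of 30198 with no filter. If every probe of a gene had to be well above background on both arrays, 24 Wnt pathway genes passed in place of 30. Sign changes of single genes numbered 15 with spike-in scaling, 4 each with normexp, cyclic loess and the mean of probes, and 2 each with quantile and median scaling, Ctnnb1 and Fzd8 being in every one of these. Signal over background limits the 5 genes that passed the background flag in WT alone, and Axin2, Wnt1, Wnt11 and Wnt2b, which lie near the lowest measurable signal. It also limits Sfrp2, Wnt5a and Wnt5b, which were as dim on the CKO array (21.7, 24.1 and 19.7).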

Other observations

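Wnt genes that lie side by side in the mouse genome could be set beside each other by the mm9 positions of their probes. Wnt6 and Wnt10a, 19.3 kb apart on chromosome 1, differed by 0.15 ± 0.22 and −0.23 ± 0.22. Wnt1 lies 21.2 kb from Wnt10b on chromosome 15, and Wnt10b was well above background on neither array, while Wnt1 was on both. On chromosome 11 Wnt9b (0.38) lies 88.5 kb from Wnt3 and Wnt9a (0.03) 82.9 kb from Wnt3a, and Wnt3 and Wnt3a were well above background on neither array. On chromosome 6, which carries Gata2, the nearest member was Wnt7a at 3.16 Mb, well above background on neither array. The next were Wnt5b at 31.2 Mb (−0.63), Lrp6 at 46.2 Mb (0.13) and Wnt16 at 65.9 Mb (a bound of −1.90).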
